A study of Mus musculus with 6 samples.

Results

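Cytosolic ribosomal protein genes were examined in TuBo cells with and without p140Cap. They were taken from the deposited counts as the rows whose symbol is Rpl or Rps followed by a number and, in some, the letters a, x, l or y, together with Rplp0, Rplp1, Rplp2 and Rpsa. This gave 85 of 21960 genes. Of these, 77 encode the standard proteins of the ribosome (46 of the large 60S subunit and 31 of the small 40S subunit). The other 8 are paralog-type genes, whose symbols extend that of a standard gene. RefSeq lists Rpl6l among them as a pseudogene. Fau and Rack1 also give parts of the ribosome under other names, and are described separately.

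Every ribosome carries these proteins once each, apart from the stalk proteins Rplp1 and Rplp2, so cells make the proteins in matched amounts. In mammals the matching is set largely in translation. Most of the mRNAs begin with a C followed by a run of C and U, the 5′ terminal oligopyrimidine (TOP) motif, through which mTORC1 and the mRNA-binding protein Larp1 hold or release them as a group. Transcription of the genes, and of the nucleolar factors that fold rRNA and load the proteins on it, rises in growing cells, with Myc as a known driver.

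The MMTV promoter drives an activated rat HER2/neu gene in the mammary epithelium of BALB/c-MMTV-NeuT mice, whose tumors gave rise to the HER2+ line TuBo. RNA was sequenced from 3 mock libraries, labelled wt, and 3 p140Cap libraries. All 6 are labelled as Balb-NeuT lines and thus share the BALB/c background and the transgene. The p140Cap cells carry in addition a retroviral (pBabe-puro) p140Cap cDNA, were selected with puromycin, and are a pool of clones each grown from a lone cell. The sources used here do not give the vector of the mock cells, so p140Cap, transduction and cloning cannot be told apart in this comparison. The labels speak of cell lines in one field and of mice in another, and the samples were read here as the cell lines. No source says how far apart the replicate cultures were grown, so the p-values measure the spread between these libraries, which may be technical.

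Srcin1, the gene of p140Cap, had 14.98 ± 1.96 CPM (counts scaled to the TMM-adjusted library size, mean ± SD, n = 3) in mock and 2343 ± 153 CPM in p140Cap libraries. Depth was 33058719 to 75506562 reads in mock and 13770385 to 15364850 reads in p140Cap libraries, so every mock library was deeper. Of 8 mammary epithelial markers, 7 were well detected (Epcam, Krt8, Krt18, Cdh1, Cldn3, Cldn7 and Erbb2), and Krt19 had 6 reads in mock and 9 in p140Cap libraries in all. Ptprc, Cd3e and Adgre1 of the immune markers, Kdr of the endothelial markers, and Col1a2 and Dcn of the fibroblast markers had 0 reads in all 6 libraries. Of the other immune markers, Csf1r had 5 reads and Itgam 1 read in mock libraries, and both had 0 in p140Cap libraries, as had Pdgfrb (3 reads in mock) and Cdh5 (1 read in mock). Among fibroblast and endothelial markers with reads, Pdgfra had 1086 reads in mock and 333 in p140Cap libraries and was not called, Col1a1 had 425 and 218 reads and was higher (log2 fold change 0.80), and Pecam1 had 40 and 28 reads and was higher (1.252). The part of these markers in the results on ribosomal protein genes was not tested. By edgeR's quasi-likelihood test and a Benjamini-Hochberg adjusted p under 0.05, 71.1% of the 11800 genes tested were called, 35.9% lower and 35.2% higher in p140Cap cells. A call was thus common in this comparison.

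The letters around the annotated transcription start were searched for runs of C and T like that of a TOP motif. RefSeq start sites on GRCm38.p6, the build that the submitters' notes name as mm10, were found for 64 of the 85 genes. The 30 bases below span 15 bases on each side of the annotated start, in the sense of the gene, and capitals mark the longest run of C and T that begins with C, wherever it lies in the window. The genes shown are the S6 kinase substrate Rps6, the stalk protein gene Rplp2, Rpl27a with one of the longest runs, the paralog Rpl22l1, the 4 standard genes with the largest decrease (Rpl27, Rpl12, Rpl5 and Rps2), and Rpl10, the standard gene with the highest log2 fold change.
Rps6, chr4:86857353-86857382, minus strand: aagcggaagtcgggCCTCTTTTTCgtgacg
Rplp2, chr7:141447636-141447665, plus strand: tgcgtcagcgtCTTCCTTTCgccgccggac
Rpl27a, chr7:109519180-109519209, plus strand: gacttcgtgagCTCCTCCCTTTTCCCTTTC
Rpl22l1, chr3:28805493-28805522, plus strand: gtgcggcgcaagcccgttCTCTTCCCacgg
Rpl12, chr2:32961697-32961726, plus strand: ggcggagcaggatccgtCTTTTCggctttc
Rps2, chr17:24720048-24720077, plus strand: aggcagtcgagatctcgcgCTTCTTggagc
Rpl27, chr11:101442230-101442259, plus strand: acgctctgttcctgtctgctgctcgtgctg
Rpl5, chr5:107900513-107900542, plus strand: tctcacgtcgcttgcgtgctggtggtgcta
Rpl10, chrX:74270801-74270830, plus strand: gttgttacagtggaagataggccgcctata

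Rpl27, Rpl5 and Rpl10 have no run of 5 or more at the annotated site. A run of at least 8 was present in 26 of the 64 genes (40.6%), against 11.97% of the tested genes with a start site, 11.6% of mitochondrial ribosomal protein genes and 3.23% of ribosome assembly factor genes. A run of at least 5 was present in 65.6% of them and in 42.7% of tested genes. An annotated start a few bases off changes these counts, and a start site on the map is no measurement of where transcription began in these cells.

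Ribosomal protein mRNAs made up less of the reads in p140Cap cells. Their summed share was 4.38, 4.45 and 4.72% of the reads on genes in mock replicates 1 to 3, and 3.87, 3.53 and 4.06% in p140Cap replicates 1 to 3. The groups did not overlap, and the means were 4.52 ± 0.180% and 3.82 ± 0.267% (SD, n = 3), a ratio of 0.845. The exact two-sided permutation test, with 3 against 3 libraries, cannot give a p below 0.1. The 60S genes went from a mean of 2.58% to 2.22%, and the 40S genes from 1.87% to 1.54%. Among the 100 genes with most reads were 16 of the ribosomal protein genes. With these 100 genes set aside, the remaining ribosomal protein genes took 2.97 ± 0.134% of the other reads in mock and 2.53 ± 0.180% in p140Cap libraries. These are shares of the reads of a library, and the amount of RNA per cell was not measured.

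**Figure D1:**
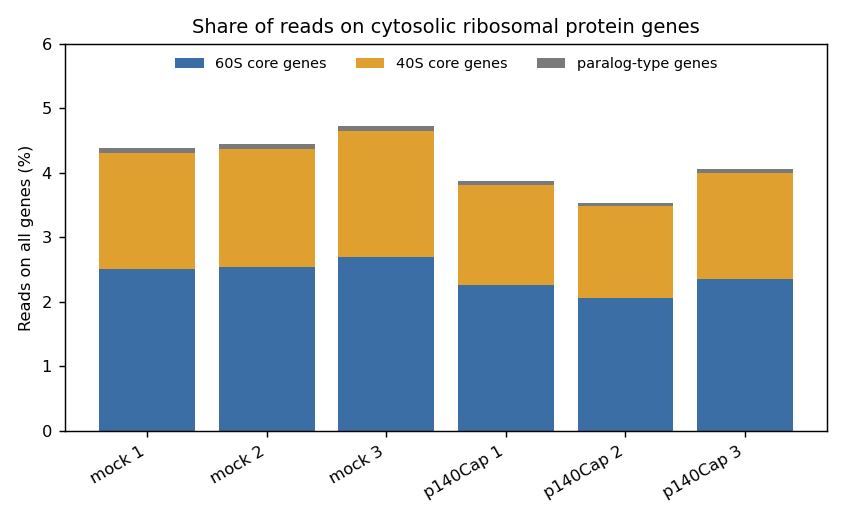
Stacked bars give, for each of the 6 libraries, the percentage of all reads on genes that fell on 60S, 40S and paralog-type ribosomal protein genes. The mock bars reach 4.38 to 4.72% and the p140Cap bars 3.53 to 4.06%.

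A small decrease was shared by most of the genes, and 4 standard genes fell further by the reads of their own rows. For Rpl27, 1 of these, adding the reads of its pseudogene row gave a log2 fold change of −0.32. Of 82 genes tested, 66 were lower in p140Cap cells, 1 was higher and 15 were not called, so 80.5% were lower against 35.9% of all genes. Negative log2 fold changes were found for 78 of 82, against 50.2% of all genes. The median was −0.22, a decrease of 13.9% in CPM, where the median of all tested genes was −0.00. Of the genes tested, 66 had every p140Cap library below every mock library, against 37.2% of all genes. Of the 62 standard genes called lower, 58 had a log2 fold change between −0.5 and 0. Only 5 of 82 were called with a log2 fold change of −0.5 or below, against 15.5% of all genes. The SD of the log2 fold changes was 0.20 over the 77 standard genes and 0.11 once Rpl27, Rpl12, Rpl5 and Rps2 were left out, where that over all tested genes was 0.77. With all libraries thinned to the smallest total, 60 genes were lower.

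**Figure D2:**
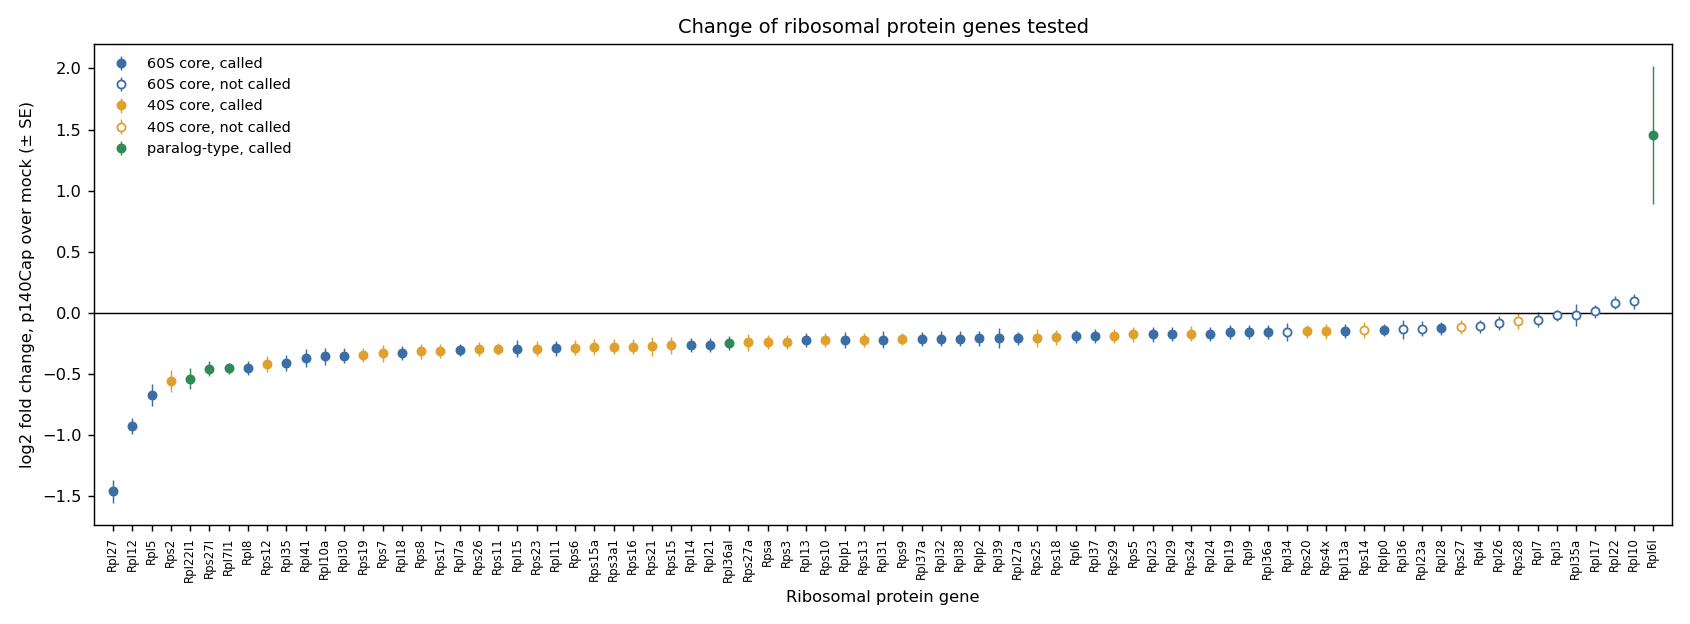
Points give the log2 fold change, p140Cap over mock, of 81 of the 82 ribosomal protein genes tested, in rank order with SE bars, leaving out 1 gene that was not called and is not reported here. Filled points were called by edgeR at an adjusted p under 0.05, and color marks 60S, 40S and paralog-type genes. Most lie in a band just below 0, with Rpl27, Rpl12 and Rpl5 below it and Rpl6l, a gene of very few reads, far above.

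The libraries did not contribute alike. Over 81 genes, that is, all those tested but Rpl6l, the median log2 ratio of CPM to the mock mean was −0.04, −0.03 and 0.07 in mock replicates 1 to 3 and −0.21, −0.34 and −0.13 in p140Cap replicates 1 to 3. p140Cap replicate 2 was thus the lowest, and gave the lowest of the p140Cap values for 68 of 82 genes. Mock replicate 3 gave the highest of the mock values for 60 genes. Without p140Cap replicate 2, 55 genes were lower and 3 higher, and the median was −0.17. Without mock replicate 3, 56 genes were lower. In all, 51 of the 66 genes were lower also with each library left out in turn.

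**Figure D3:**
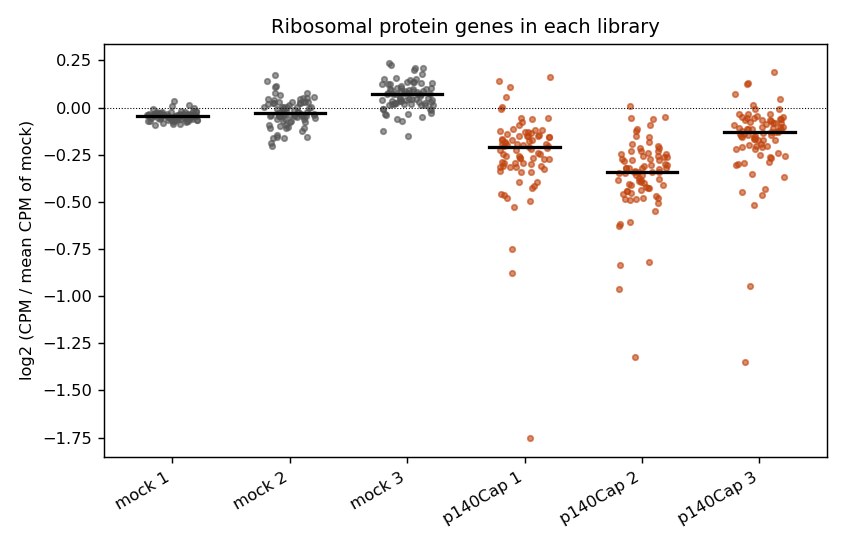
Each point is 1 ribosomal protein gene in 1 library, as the log2 ratio of its CPM to its mean CPM in mock libraries, and bars are medians. The medians of the p140Cap libraries lie at −0.21, −0.34 and −0.13, and those of the mock libraries between −0.04 and 0.07.

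In the 40S subunit, 28 of 31 genes were lower (90.3%) and none was higher, against 35.9% and 35.2% of all tested genes. The range of log2 fold changes was −0.55 to −0.07, with a median of −0.24. Rpsa, also known as the laminin receptor, and the ribosomal protein gene with the highest CPM, had 2295, 2319 and 2534 CPM in mock and 2046, 1858 and 2139 CPM in p140Cap libraries. Its groups did not overlap, and its log2 fold change was −0.24 (SE 0.06, edgeR adjusted p = 0.00125). Rps6, the protein that S6 kinase phosphorylates, had 368, 373 and 376 CPM in mock and 308, 274 and 335 CPM in p140Cap libraries. This gene fell by 0.29 on the log2 scale (SE 0.06, edgeR adjusted p = 0.000453). Rps12 fell from 815 ± 68.6 to 609 ± 45.6 CPM, with a log2 fold change of −0.42 (SE 0.06). Rps19, the gene most often mutated in Diamond-Blackfan anemia, had a log2 fold change of −0.34, and Rps27a, which is translated as a fusion with ubiquitin, one of −0.24. The 3 genes not called were Rps14 at −0.14, Rps27 at −0.12 and Rps28 at −0.07.

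In the 60S subunit, 34 of 46 genes were lower (73.9%) and none was higher, against 35.9% and 35.2% of all tested genes. The median log2 fold change was −0.20. Rpl8, which lies by the peptidyl transferase center, had 895, 894 and 1027 CPM in mock and 665, 700 and 697 CPM in p140Cap libraries. The mock values lay well above all p140Cap values, with a log2 fold change of −0.45 (SE 0.06, edgeR adjusted p = 2.15e-06), and Rpl8 had no near-identical copy in the genome. The stalk genes, whose proteins recruit the elongation factors, were all lower. Rplp0 fell from 1447 ± 89.6 to 1313 ± 43.3 CPM, with a log2 fold change of −0.14 (SE 0.05). For Rplp1 the log2 fold change was −0.22 and for Rplp2 it was −0.21. Rpl11, which with Rpl5 and 5S rRNA forms the particle that can bind Mdm2, fell from 203 ± 13.2 to 166 ± 11.8 CPM, or by 0.29 on the log2 scale (SE 0.06, edgeR adjusted p = 0.000329). Rpl41, which encodes a very short peptide, had a log2 fold change of −0.37, Rpl35 one of −0.41, and Rpl39, which lines the exit tunnel, one of −0.21. The groups of Rpl39 overlapped, and it was not called by DESeq2 or without mock replicate 2 or p140Cap replicate 2.

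Among standard genes, 12 of the 15 not called belong to the 60S subunit. Rpl10, which joins the subunit late, in the cytoplasm, had 999, 1052 and 986 CPM in mock and 1116, 972 and 1154 CPM in p140Cap libraries. The groups overlapped, through p140Cap replicate 2, and the log2 fold change was 0.09 (SE 0.06, edgeR adjusted p = 0.163). Rpl22 had 176, 181 and 185 CPM in mock and 202, 174 and 197 CPM in p140Cap libraries, with a log2 fold change of 0.08 (SE 0.06, edgeR adjusted p = 0.187). Again p140Cap replicate 2 was the library that overlapped, and without it Rpl10 was called higher at 0.16 (edgeR adjusted p = 0.00476) and Rpl22 at 0.14 (edgeR adjusted p = 0.0129). Rpl17 at 0.01, Rpl35a at −0.01 and Rpl3 at −0.02 showed no detectable difference, and Rpl7 had −0.06. Rpl26 (−0.08), Rpl4 (−0.11), Rpl23a and Rpl36 (−0.13 each), and Rpl34 (−0.16) were also not called, although the groups of Rpl4 and Rpl34 did not overlap.

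The called genes nearest to 0 were Rpl28 (−0.13), Rplp0 (−0.14), Rpl13a, Rps4x and Rps20 (−0.15 each), Rpl36a, Rpl9 and Rpl19 (−0.16 each) and Rpl24 (−0.17). Of these 9, Rpl24 alone was called lower with each library left out. The other 8 lost the call without at least 1 of mock replicates 2 and 3 and p140Cap replicates 1, 2 and 3. By contrast, the 10 genes with the lowest log2 fold changes were called lower in each of the 17 fits made.

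The 4 standard genes with the largest decrease were also the 4 with the lowest CPM per kilobase of coding sequence in mock libraries. Rpl27 had 37.2, 37.9 and 43.5 CPM in mock and 11.7, 15.8 and 15.5 CPM in p140Cap libraries, with a log2 fold change of −1.46 (SE 0.09, edgeR adjusted p = 8.75e-10). Rpl12 had 44.0, 43.9 and 48.1 CPM in mock and 24.7, 23.2 and 23.5 CPM in p140Cap libraries, with a log2 fold change of −0.93 (SE 0.06). In both, the p140Cap values lay far below the mock values. Rpl5 had 47.5, 55.1 and 44.0 CPM in mock and 29.1, 27.7 and 35.4 CPM in p140Cap libraries, with a log2 fold change of −0.67 (SE 0.09). Rps2 had 11.5, 12.3 and 11.2 CPM in mock and 8.11, 7.56 and 8.15 CPM in p140Cap libraries, with a log2 fold change of −0.55 (SE 0.09). None of their groups overlapped.

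The level per coding length of these 4 genes stood apart from the rest. In mock libraries the median over the standard genes was 1136 CPM per kilobase of coding sequence, whereas Rps2 had 13.3, Rpl5 54.8, Rpl12 91.6 and Rpl27 96.9, and the next lowest were Rpl29 with 157 and Rpl10a with 272. Ribosomal protein genes have many processed pseudogenes, and at least 1 near-identical copy (95% identity or more over 80% or more of the coding sequence, blastn on GRCm39) was found for 73 of the 85 genes. Rps2 had 29 such copies, Rpl27 and Rpl12 had 7 each, and Rpl5 had 6, while Rpl21 had the most with 56. The submitters' notes name the tool RSEM but not its role. How the counting assigned reads that match a gene and its copies is not described in these sources. The part of such reads in the low levels was not tested. By number of copies found, the median log2 fold change was −0.24 over 9 genes without a copy, −0.21 over 33 with 1 to 5, and −0.22 over 39 with 6 or more. Only the main annotated coding sequence of each gene was searched, so copies of a shorter form could be missed.

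For Rpl27 the copy itself was in the counts. The row of Rpl27-ps3 held 53612 reads in mock and 13353 in p140Cap libraries, against 5804 and 621 reads on Rpl27. The pseudogene row, with most of the reads, had a log2 fold change of −0.23 (SE 0.06, edgeR adjusted p = 0.00225) where that of Rpl27 was −1.46. With the reads of both rows added, the log2 fold change of Rpl27 was −0.32 (SE 0.06, edgeR adjusted p = 0.000151), inside the band of the other genes. For Rps2 the sum gave −0.57. For Rpl12 and Rpl5 no copy row was present in the counts, so nothing was added and their values were not tested in this way. In the counts 31 copy rows were present, of which 13 were tested, 3 were lower (against 35.9% of all tested genes) and 10 were not called. Gm10260, a copy of Rps18, had more reads than Rps18 itself, 73799 against 37370 in mock libraries, and a log2 fold change of −0.21 beside −0.20 for Rps18. Gm2000, a copy of Rpl35, had −0.40 beside −0.41 for Rpl35. With all copy rows added, 67 genes were lower.

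Most paralog-type genes that were tested fell, by more than the median of the standard genes. Of 8 such genes, 5 were tested, and Rpl22l1, Rps27l, Rpl7l1 and Rpl36al were lower while Rpl6l was higher. Among all tested genes, 35.9% were lower and 35.2% higher. Rpl22l1 (−0.54, SE 0.09), Rps27l (−0.46) and Rpl7l1 (−0.45) had the lowest log2 fold changes after the 4 genes above. Rpl22l1 encodes a protein that can take the place of Rpl22 in the 60S subunit. It had 176, 205 and 177 CPM in mock and 135, 104 and 145 CPM in p140Cap libraries, without overlap, while Rpl22 was not called. Rpl22l1 thus made up 49.9, 53.2 and 48.9% of the reads on the pair in mock and 40.04, 37.5 and 42.4% in p140Cap libraries. The mean share went from 50.7 ± 2.22% to 39.98 ± 2.48% (SD, n = 3), and the exact 95% binomial intervals of the pooled reads, which cover counting error only, were 50.2 to 51.1% and 39.3 to 40.9%.

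Rps27l, a p53-inducible paralog of Rps27, had 141, 151 and 145 CPM in mock and 111, 94.8 and 113 CPM in p140Cap libraries. Its share of the reads on the pair was 33.1 ± 1.60% in mock and 28.1 ± 0.954% in p140Cap libraries. Rpl7l1, a relative of Rpl7, had a share of 8.23 ± 0.0161% in mock and 6.40 ± 0.504% in p140Cap libraries. Rpl36al, which like Rpl36a was lower, had a share of 54.6 ± 0.524% in mock and 53.1 ± 0.748% in p140Cap libraries. In each of these 4 pairs the p140Cap shares lay below all mock shares, and with each library left out the difference of the means for Rpl22l1 stayed between −11.9 and −9.46 percentage points. No smaller p than 0.1 can be had for these shares by an exact permutation test.

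**Figure D4:**
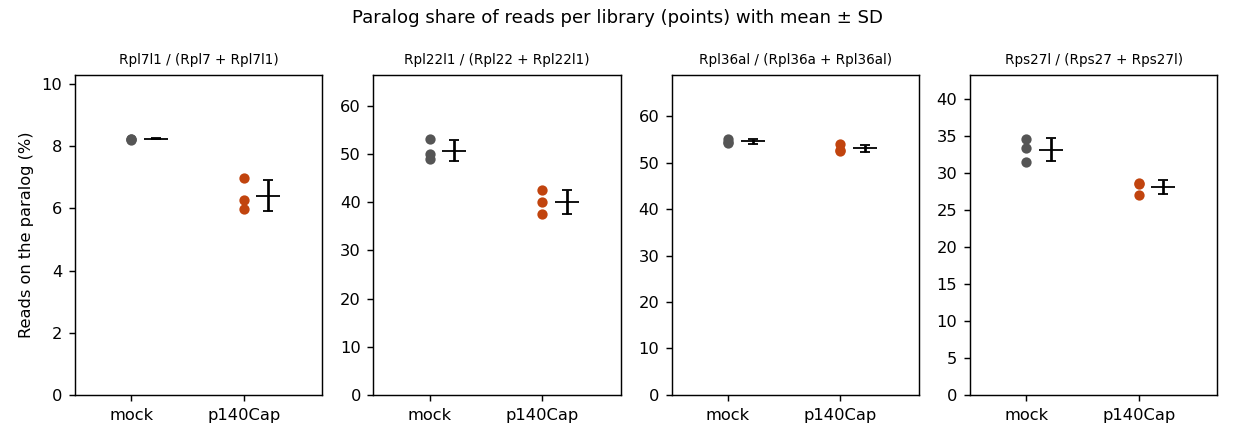
Points give, for each library, the share of the reads on a pair of genes that fell on the paralog, in percent, with the mean ± SD of the 3 libraries beside them. Axes start at 0 and differ between panels. The Rpl22l1 share is 48.9 to 53.2% in mock and 37.5 to 42.4% in p140Cap libraries.

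Rpl6l, a pseudogene by RefSeq and close to Rpl6 in sequence, had 38, 0 and 20 reads in mock and 25, 9 and 12 reads in p140Cap libraries. Its log2 fold change was 1.45 (SE 0.57, edgeR adjusted p = 0.0302), and it was not called by DESeq2 or without p140Cap replicate 1 or 3. The other 3 paralog-type genes were not tested. Rpl10l and Rpl39l, known from the male germ line, had 0 reads in all libraries, and Rpl3l, known from muscle and heart, had 2, 0 and 2 reads in mock and 0, 2 and 0 reads in p140Cap libraries. Their standard partners had mean CPM in mock libraries of 1012 for Rpl10, 456 for Rpl39 and 349 for Rpl3. Rps4l and Rpl26l1 had no row in the counts, and the level of Rps4x was 1404 ± 46.6 CPM in mock and 1266 ± 121 CPM in p140Cap libraries.

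Of the parts of the ribosome that bear other names, Fau, the ubiquitin-like fusion that yields a 40S protein, fell by 0.30 on the log2 scale (SE 0.05, edgeR adjusted p = 9.23e-05). Rack1, the scaffold on the 40S head, fell by 0.14 (SE 0.05, edgeR adjusted p = 0.0243). Both values lie within the range of the standard genes.

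Other genes known for TOP mRNAs encode translation factors and related proteins. Of 11 with a RefSeq start site, 7 had a run of at least 5 and 3 a run of at least 8. Of 16 tested, 8 were lower and 6 higher, where 35.9% and 35.2% of all tested genes were, and their median log2 fold change was −0.12. Their summed share of reads overlapped between groups (2.01 ± 0.0433% in mock and 1.95 ± 0.0304% in p140Cap libraries). Eef1g, a subunit of the elongation factor exchange complex, fell by 0.92 on the log2 scale, and Nap1l1, a histone chaperone, by 0.80. Pabpc1, the cytoplasmic poly(A)-binding protein, rose by 0.69 on the log2 scale (SE 0.05, edgeR adjusted p = 1.15e-09). Eef1a1, with 8961 ± 207 CPM in mock and 8440 ± 161 CPM in p140Cap libraries, was not called.

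The genes that build ribosomes fell much further than the genes of the ribosome's own proteins. All 38 assembly factor genes tested were lower, against 35.9% of all tested genes, with a median of −1.04 on the log2 scale, a decrease of 51.4%, and 32 of them lay at −0.5 or below, against 15.5% of all tested genes. Their summed share of reads went from 0.507 ± 0.0138% to 0.277 ± 0.0195%, a ratio of 0.545 beside 0.845 for the ribosomal protein genes. Rrp12, needed for export of both subunits, had 33.9 ± 0.0893 CPM in mock and 3.76 ± 0.874 CPM in p140Cap libraries, a log2 fold change of −3.16 (SE 0.10, edgeR adjusted p = 4.05e-13). Ddx21, a nucleolar RNA helicase, had −2.26, and Nop58, a core protein of box C/D snoRNPs, had −1.71. Of the 15 genes of RNA polymerase I and its factors, which make the rRNA, 11 were lower and 1 higher, against 35.9% and 35.2% of all tested genes, with a median of −0.47. Polr1e had −1.67, Polr1b −1.45 and Polr1a −0.62. Taf1b was higher at 0.19 (SE 0.08, edgeR adjusted p = 0.0379) with groups that overlapped, and was not called by DESeq2 or without mock replicate 1, p140Cap replicate 1 or p140Cap replicate 3.

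Genes of mTORC1 and of TOP mRNA control act on ribosomal protein mRNAs after transcription. Of 18 tested, 10 were lower and 6 higher, where 35.9% and 35.2% of all tested genes were, and without p140Cap replicate 2 the number called higher was 3. Deptor, an inhibitor that binds mTOR, rose by 1.19 on the log2 scale, and Pdcd4, an inhibitor of Eif4a1 and a target of S6 kinase, by 0.72. Eif4g1, the scaffold of the cap complex, fell by 0.67. Larp1 fell by 0.36 (SE 0.05, edgeR adjusted p = 6.41e-06), and Mtor itself, at −0.11 (SE 0.06, edgeR adjusted p = 0.141), was not called. Kinase activity and translation were not measured.

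Other large sets of housekeeping genes were lower too. Of 78 mitochondrial ribosomal protein genes, 57 were lower and 3 higher (Mrps16, Mrpl14 and Mrpl24), against 35.9% and 35.2% of all tested genes. Their median log2 fold change was −0.29, with an SD of 0.31, and 20 genes lay at −0.5 or below, against 15.5% of all tested genes. Of 36 proteasome subunit genes tested, 32 were lower and 1, Psmb9, was higher (35.9% and 35.2% of all tested genes), with a median of −0.36. Beside these, the standard genes of the cytosolic ribosome had the smaller median and the narrower spread, as the plot of gene groups shows, but the difference between the groups was not tested.

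**Figure D5:**
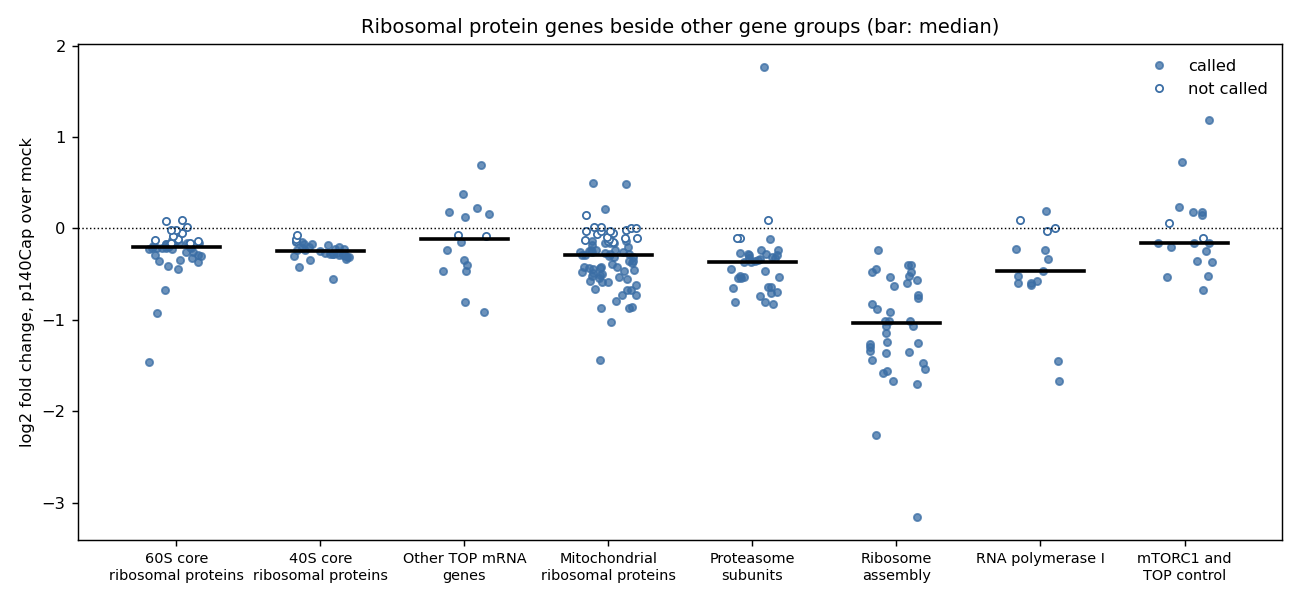
Each point is 1 gene of the group named on the x axis, the y axis gives its log2 fold change, p140Cap over mock, and bars are medians. Filled points were called by edgeR at an adjusted p under 0.05. The ribosomal protein genes form a tight band near −0.2, and the ribosome assembly genes spread from −0.24 to −3.16.

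By start-site letters, the median log2 fold change was −0.21 over the 26 genes with a run of at least 8 (22 lower), −0.29 over 13 with a run of 5 to 7 (12 lower), and −0.22 over 22 with none (19 lower). In the wider window from 250 bases before to 50 after the start, both strands read, the E-box CACGTG, a site Myc can bind, was found in 9.38% of ribosomal protein genes, 11.9% of tested genes and 32.3% of the assembly factor genes. CCGGAAG, a letter pattern of ETS-type sites such as those of GABPA, was found in 40.6% of ribosomal protein genes, 21.1% of tested genes and 45.2% of assembly factor genes. AAGATGG, a pattern of YY1 sites, was found in 15.6% of ribosomal protein genes, 8.54% of tested genes, 18.8% of mitochondrial ribosomal protein genes and 18.75% of proteasome subunit genes. TATAAA was found in 10.9, 8.07, 7.25 and 12.5% of these sets. CCGGAAG was also found in 37.7% of mitochondrial ribosomal protein and 31.2% of proteasome subunit genes. These are matches of letters and not measured binding. On GRCm38.p6 the 85 genes lie on 19 chromosomes, with the most, 14, on chromosome 7 and none on chromosome 19.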

How the data were processed

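RNA-Seq of 3 mock and 3 p140Cap libraries of TuBo cells was analysed. Libraries were stranded (paper) and poly(A)-selected (labels), and the submitters' processing notes name STAR 2.5, RSEM 0.1.1 and mm10, whereas the paper names GRCm39. The authors deposited raw counts, whole reads per gene, with replicates apart. They were tested with edgeR 4.0.16 in R 4.3.3 (TMM factors, filterByExpr by group, quasi-likelihood test on condition, Benjamini-Hochberg adjustment over 11800 genes). On counts simulated for this comparison, 91.5% of changed genes were recovered and 5.67% of calls were false. Few genes were changed in the simulation, each by more than most ribosomal protein genes here. These rates thus do not carry over to small, widespread changes. Library depth was between 13770385 and 75506562 reads.

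Near-identical copies were sought with blastn 2.17.0 on GRCm39, and start sites, promoters and positions were taken from RefSeq on GRCm38.p6. Coding lengths came from GENCODE on GRCm39.

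Named genes were the 10 lowest and 10 highest called, untested members, paralog pairs, functional members and up to 3 genes per list. Other members not called, and the copy rows, were named after their values were seen. The members and lists were chosen with earlier results of these data known. Alternatives were DESeq2 1.42.0, RLE or total scaling, TMM without the members, limma-voom (3.58.1), other filters, thinning, a replicate block and leaving out each library. Adding copy rows was chosen after seeing the data. Values of some genes are not reported here.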

Additional observations from a re-analysis of the deposited data

How the results depend on the processing

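Over 17 fits, between 55 and 73 ribosomal protein genes were lower, 50 genes were lower in each fit, and the median log2 fold change relative to that of all genes stayed between −0.27 and −0.17. The most, 73, came with library totals alone, which moved the median of all genes to −0.04, and with no filter on low counts. DESeq2 gave 68. With each library left out, 55 to 69 genes were lower and 0 to 3 higher. The count called higher, 1 (Rpl6l), was 0 with DESeq2, with at least 10 reads in every library and with thinned libraries. The filter of 10 reads leaves Rpl6l untested, as it had 0 reads in mock replicate 2. With thinned libraries, 81 ribosomal protein genes were tested. For RNA polymerase I genes called higher, the count was 0 with DESeq2 and with the replicate block, and 0 to 1 with a library left out. The mTORC1 genes called higher numbered 3 to 6 with a library left out. The cause of the other changes was not tested.

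Signs changed for genes near 0 that were not called. Rpl17 had −0.022 with library totals alone, −0.015 with no filter, and −0.018 to 0.062 with a library left out. Rpl35a had 0.040 with thinned libraries and −0.093 to 0.11 with a library left out. With a library left out, Rpl3 ranged from −0.052 to 0.0099, Rpl7 from −0.11 to 0.023 and Rps28 from −0.13 to 0.0070.

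Same-numbered libraries did not deviate together (correlations of −0.03, −0.11 and −0.06). This gave no sign that the numbers pair the samples, but so few libraries cannot settle it. With the replicate block, 66 genes were lower, of which 64 were shared, and Rpl28 and Rpl39 lost the call. Lower depth in the p140Cap libraries limits genes of few reads, such as Rpl6l and Rpl3l.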
